A study of Homo sapiens with 16 samples.

Results

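H3K27me3 was mapped in BE2C cells, a human neuroblastoma line with amplified MYCN, in the controls of 2 separate experiments. In one experiment the cells were transfected with a control siRNA (siCtrl), and in the other they were given 0.1% DMSO, the solvent of a compound, each for 72 h. Both controls had 2 replicate libraries, so that 4 of the 16 libraries of the series are described. Neither control lacked KDM6B, the H3K27me3 demethylase that the treated arms knocked down with the siRNA siKDM6B33 or inhibited with 2.5 µM GSK-J4 (also 72 h), and both came from the same line. The mode of treatment and the experiment differed together between the controls and cannot be told apart. CUT&Tag directs a DNA-cutting transposase to marked chromatin through an antibody, so that sequenced fragments mark where the modification lies. The data were lists of broad islands, called library by library.

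The islands of the 4 libraries were merged wherever they shared at least 1 bp, which gave 14771 regions. Of these, 3010 (20.4%) were called in all 4 libraries, 4067 (27.5%) in both siCtrl libraries and neither DMSO library, and 2846 (19.3%) in both DMSO libraries and neither siCtrl library. Of 19793 protein-coding genes, 2037 (10.3%) had an island within 1 kb of a transcription start in all 4 libraries. A start was called only with siCtrl, in both of its libraries, for 885 genes (4.47%), and only with DMSO for 715 genes (3.61%). The siCtrl-only genes fell to 527 with equal numbers of islands and 551 with islands of at least 2 kb, and the DMSO-only genes to 436 with the highest-scoring 50% of islands and 19 with islands under 50% in H3K4me1, the last chosen after seeing the data. These are the 3 classes compared below, and the calls themselves chose them.

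H3K27me3 is placed by Polycomb repressive complex 2 and removed by the KDM6 demethylases. It marks silent genes, above all the CpG-rich promoters of developmental regulators that a differentiated cell does not use, such as the HOX genes. In neuroblastoma, a tumor of the sympathetic lineage, adrenergic cells rely on regulators such as HAND2 and GATA3 and make catecholamines, whereas mesenchymal regulators such as PRRX1 are typical of the alternative state. H3K4me1 marks enhancers and the flanks of active promoters, and it was mapped in the same experiments.

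A promoter of each single-control class is shown to make these classes concrete. They belong to the gene with the widest island at its start in the class, and each runs from 250 bases before to 50 bases from the canonical start (hg19). CXCL17, called only with siCtrl, is on the minus strand at chr19:42947049-42947348. KIF26A, called only with DMSO, is on the plus strand at chr14:104604674-104604973. Capitals mark CG dinucleotides.
CXCL17: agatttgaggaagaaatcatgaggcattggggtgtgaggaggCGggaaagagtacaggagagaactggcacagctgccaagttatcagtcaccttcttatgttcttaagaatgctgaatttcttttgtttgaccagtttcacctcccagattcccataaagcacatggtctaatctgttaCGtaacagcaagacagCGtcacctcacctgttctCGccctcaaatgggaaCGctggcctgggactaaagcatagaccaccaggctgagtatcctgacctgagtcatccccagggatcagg
KIF26A: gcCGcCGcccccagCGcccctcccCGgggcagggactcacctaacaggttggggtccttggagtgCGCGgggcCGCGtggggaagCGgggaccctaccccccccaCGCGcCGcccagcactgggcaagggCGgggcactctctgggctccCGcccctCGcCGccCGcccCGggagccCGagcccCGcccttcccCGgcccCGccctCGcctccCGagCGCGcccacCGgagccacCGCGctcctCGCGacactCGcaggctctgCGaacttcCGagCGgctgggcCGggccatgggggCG
These 300 bases held 5 and 37 CG dinucleotides in CXCL17 and KIF26A, beside a median of 23 over all protein-coding genes. The class medians were closer together, at 28 for genes called in all 4 libraries, 24 for siCtrl only and 27 for DMSO only. At least 10 CG dinucleotides were present in 88.8%, 76.9% and 81.3% of the 3 classes and in 74.4% of all promoters. CXCL17 lay below the quartiles of its class (12 to 34), and KIF26A lay within those of its class (12 to 38).

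The 2 island lists of each control resembled each other closely and those of the other control much less. The siCtrl libraries held 10554 and 10591 islands with a median width of 3800 bp in both. The DMSO libraries held 7174 and 7397 islands with median widths of 6600 and 7000 bp. Fewer islands thus covered more sequence with DMSO, 58.3 and 64.6 Mb against 53.7 and 54.2 Mb with siCtrl (61.5 ± 4.48 and 53.9 ± 0.342 Mb, SD, n = 2 each). The numbers, widths and lengths of the groups did not overlap, and each gave an exact two-sided permutation p = 0.33, the smallest that 2 libraries against 2 allow. The difference in covered length, 7.54 Mb, fell to 1.82 Mb with the highest-scoring 50% of each list, where the exact permutation p = 1, and to 4.37 Mb without DMSO replicate 2. It reversed to -20.1 Mb with only islands under 50% in H3K4me1, an alternative chosen after seeing the data. Islands of 10 kb or more made up 9.06% and 9.14% of the siCtrl lists and 23.2% and 27.4% of the DMSO lists.

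Depth and stringency moved with the control. The genome background, the mean number of tags over a base that the narrow peak lists imply, was 0.0395 and 0.0401 with siCtrl and 0.0298 and 0.0338 with DMSO. The lowest island score was 45.4 in both siCtrl lists and 83.1 and 90.7 in the DMSO lists. Their part in the differences above was not tested. When every list was shortened to 7174 islands by score, 2921 regions remained in all 4 libraries, 2038 with siCtrl only and 2868 with DMSO only. This trimmed almost only the siCtrl lists. At equal covered length the counts were 2553, 4583 and 2141, and with the highest-scoring 50% of each list 1779, 2215 and 1270, so all 3 counts moved with the islands used.

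**Figure D1:**
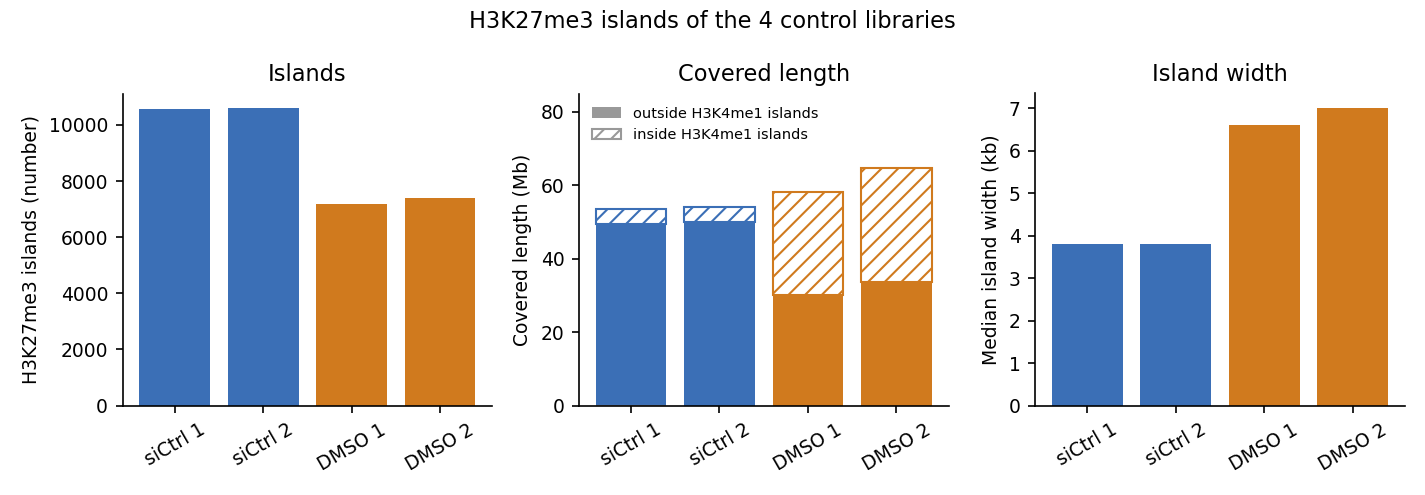
Number of H3K27me3 islands, covered length in Mb and median island width in kb for the 4 control libraries (siCtrl blue, DMSO orange), 1 bar per library. Hatching marks length inside H3K4me1 islands shared by both siCtrl libraries, 7.95% and 7.81% with siCtrl and 48.4% and 47.8% with DMSO.

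Of the bases covered by either member of a pair, the siCtrl replicates shared 0.637 (Jaccard index) and the DMSO replicates 0.632. Across controls the 4 pairs shared 0.316 to 0.322. All 4 libraries covered 22.9 Mb in common, 21.5% of the 106.7 Mb that any of them covered. A further 13.2 Mb lay in both siCtrl lists and neither DMSO list, and 22.2 Mb in both DMSO lists and neither siCtrl list. Replicates also differed, since 3053 regions were called in a single siCtrl library alone and 1098 in a single DMSO library alone. By comparison, 33 regions were called in exactly 1 library of each control, or 8.25 for each of the 4 ways that can arise. That count does not measure how often 2 libraries of like depth and lowest score call a region that the other control misses.

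Regions called in all 4 libraries had a median width of 10400 bp and a summed length of 40.3 Mb. They join the islands of 4 libraries and those of a single control the islands of 2, which by itself makes them wider. Within a library, the median covered length per region was 7.4 and 7.2 kb with siCtrl and 7.6 and 8.0 kb with DMSO in this class, 3.2 kb in both siCtrl libraries for siCtrl-only regions, and 6.4 and 7.0 kb for DMSO-only regions. The merged siCtrl-only regions had a median of 4000 bp and 18.04 Mb in all. The DMSO-only regions had a median of 8000 bp and spanned 27.4 Mb. A transcription start lay in or within 1 kb of 65.3% of the regions called in all 4 libraries, 23.1% of the siCtrl-only and 26.0% of the DMSO-only regions. Over all regions the share was 30.5%. A wider region reaches a start more easily, and the part of width in these shares was not tested. Genes covered 50.3%, 45.0% and 69.7% of the bases of the 3 classes. The remaining regions were 608 called in both siCtrl and 1 DMSO library, 56 in both DMSO and 1 siCtrl library, and those named above.

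**Figure D2:**
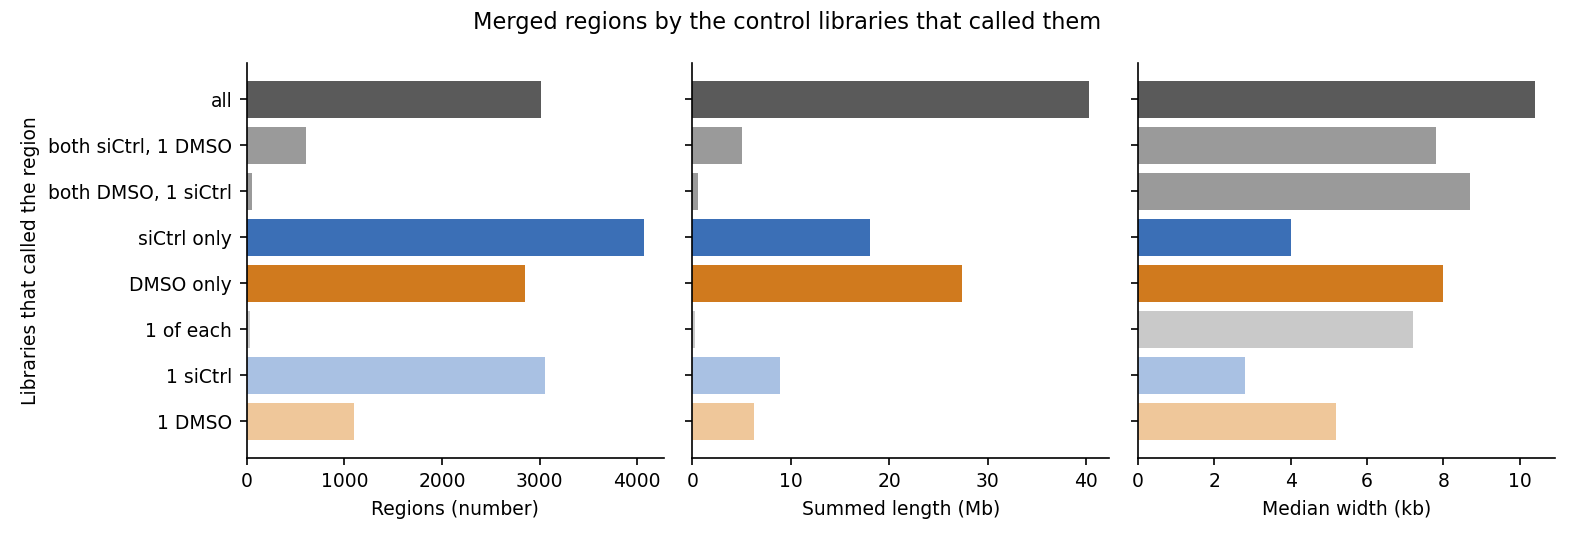
Merged regions by the control libraries that called them, with the number of regions, their summed length in Mb and their median width in kb on the horizontal axes. The regions of all 4 libraries reach 40.3 Mb from 3010 regions, whereas 4067 siCtrl-only regions sum to 18.04 Mb and 2846 DMSO-only regions to 27.4 Mb.

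Base composition also differed among the classes. The median GC content was 50.8% in regions called in all 4 libraries, 48.4% in siCtrl-only and 54.1% in DMSO-only regions, against 40.9% in the genome. CpG density had a median of 26.6 per kb in regions of all 4 libraries, 15.5 in siCtrl-only and 18.5 in DMSO-only regions, where the genome had 9.85. Regions called in both experiments thus had the highest median CpG density of the 3 classes. These are descriptions of regions that share libraries, and no test was made of them.

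Calls in the other control fell with island score in all 4 libraries. The lists differ in length and lowest score, so a rank is not the same depth in each and the falls are not compared between controls. Calls in the replicate fell with score in both, to 52.4% and 50.8% at ranks 9001 to 10000 with siCtrl and 61.9% and 53.2% at ranks 6001 to 7000 with DMSO. Among the 1000 highest-scoring islands of each siCtrl library, 100% were called in both DMSO libraries. The share was 98.1% and 97.4% in the next 1000 and 36.1% and 35.3% at ranks 3001 to 4000. It was 4.70% and 3.80% at ranks 9001 to 10000. With DMSO, 74.2% and 71.4% of the 1000 highest-scoring islands were called in both siCtrl libraries, and 37.3% and 36.6% at ranks 6001 to 7000. The DMSO replicates nevertheless shared 100% of each other's first 1000 islands, of which 35.4% and 38.5% lay for at least 50% of their length in H3K4me1 islands of both siCtrl libraries.

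**Figure D3:**
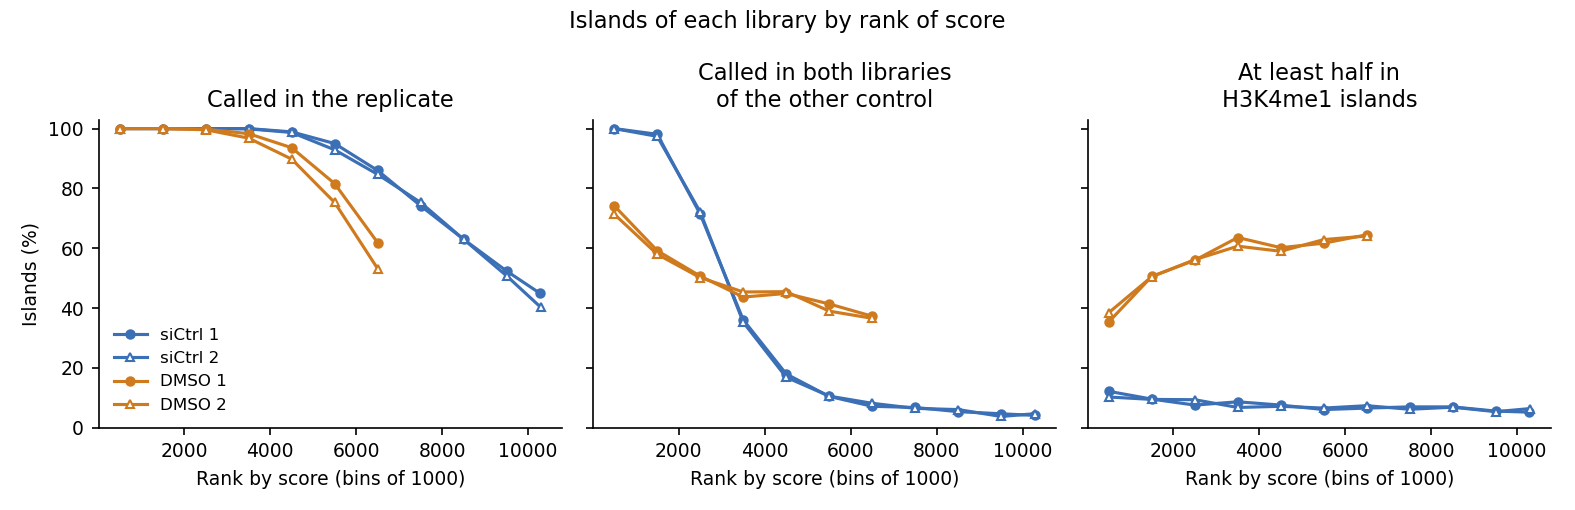
Islands of each library ranked by score in bins of 1000 (horizontal axis, highest score first; siCtrl blue, DMSO orange; circles replicate 1, triangles replicate 2; short last bins are left out). The panels give the percentage called in the replicate, called in both libraries of the other control, and lying for at least 50% of their length in H3K4me1 islands of both siCtrl libraries. The first siCtrl bin is at 100% in the other control and the first DMSO bin at 74.2% and 71.4%.

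The classes differed widely in their overlap with H3K4me1. Islands of H3K4me1 from the siCtrl libraries covered 91.8% and 91.0% of the bases of the DMSO-only H3K27me3 regions, although neither siCtrl library had an H3K27me3 island there. The same islands covered 2.85% and 2.97% of the siCtrl-only regions and 14.3% and 14.2% of the regions called in all 4 libraries. H3K4me1 islands of both siCtrl libraries took up 2.74% of the genome. At least 50% of the region lay in them for 98.2% of the DMSO-only, 3.69% of the siCtrl-only and 11.8% of the all-4 regions. With the H3K4me1 islands of the DMSO libraries the shares of bases were 86.4% and 83.1% for DMSO-only, 2.17% and 1.84% for siCtrl-only, and 26.9% and 19.8% for all-4 regions.

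Per library, H3K4me1 islands of both siCtrl libraries held 7.95% and 7.81% of the H3K27me3 length with siCtrl and 48.4% and 47.8% with DMSO. The difference was 40.2 percentage points (7.88 ± 0.101 against 48.1 ± 0.440, SD, n = 2 each), with an exact permutation p = 0.33, again the lowest attainable. The difference was many times the spread between replicates. The DMSO islands that lay for under 50% of their length in H3K4me1, 3144 and 3236 in number, were called in both siCtrl libraries in 98.2% and 97.2% of cases. For the 4030 and 4161 DMSO islands with at least 50% of their length in H3K4me1, the share was 12.2% and 11.2%. The siCtrl islands went the other way. Both DMSO libraries called 65.1% and 64.2% of those with at least 50% in H3K4me1, and 31.6% and 31.5% of those under 50%. When only islands under 50% in H3K4me1 were used, an alternative chosen after seeing the data, 21 regions were called only with DMSO in place of 2846. The siCtrl-only regions then numbered 3935 and the all-4 regions 2524. The part of H3K4me1 signal in the DMSO-only calls was not tested.

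Narrow peaks, called from the same reads by another caller, were used to look below the island calls. Islands of these reads chose the classes, so a lower density in the control without islands follows from that choice. It is no support for the classes. In the DMSO-only regions they lay at 131 and 152 per Mb in the DMSO libraries and at 18.2 and 19.6 per Mb in the siCtrl libraries. Outside all islands the densities were 5.62 and 6.72 per Mb with DMSO and 5.36 and 5.64 per Mb with siCtrl. In the siCtrl-only regions the siCtrl libraries had 142 and 141 peaks per Mb, and the DMSO libraries 57.7 and 65.4. The control without an island thus had a higher peak density there than over the genome outside all islands. That reference takes in gene deserts and gaps, and the flanks of these regions were not measured. Regions called in all 4 libraries held 285 and 289 peaks per Mb with siCtrl and 163 and 177 with DMSO.

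The treated libraries, which did not enter the classes, were used to see whether the classes recur in another arm of the same experiments. They differ from the controls by treatment, and they were made in 2 replicates. Of all 14771 regions, 63.3% and 62.9% were called in the siKDM6B33 libraries and 57.5% and 48.6% in the GSK-J4 libraries. The GSK-J4 replicates stood apart from each other, with 16675 islands of 3000 bp median width in replicate 1 and 8005 of 7400 bp in replicate 2. Their lowest island scores were 50.0 and 97.2, beside 45.4 in both siCtrl lists and 83.1 and 90.7 in the DMSO lists.

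Regions called in all 4 controls were called again in 99.3% of cases in both siKDM6B33 libraries and in 97.7% and 93.0% with GSK-J4. The siCtrl-only regions were called in 89.2% of cases in both siKDM6B33 libraries but in 23.4% and 10.7% with GSK-J4. The DMSO-only regions showed the opposite, with 1.62% and 1.48% in the siKDM6B33 libraries and 100% and 96.6% with GSK-J4. The difference was 72.1 percentage points for the siCtrl-only regions (89.2 ± 0.0174 against 17.1 ± 9.02) and 96.8 for the DMSO-only regions (1.55 ± 0.0994 against 98.3 ± 2.39, SD, n = 2 each). Both gave an exact permutation p = 0.33. Without GSK-J4 replicate 1 the differences were 78.5 and 95.1 points. At equal covered length in all libraries the first difference was 39.8 and the second 95.4. Regions of a single control were thus called far more often in the treated libraries of the same experiment than in those of the other. The treated libraries also split by H3K4me1, with 5.22% and 5.27% of the siKDM6B33 length and 62.8% and 48.1% of the GSK-J4 length in H3K4me1 islands of both siCtrl libraries. The part of that overlap in the recurrence was not tested.

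**Figure D4:**
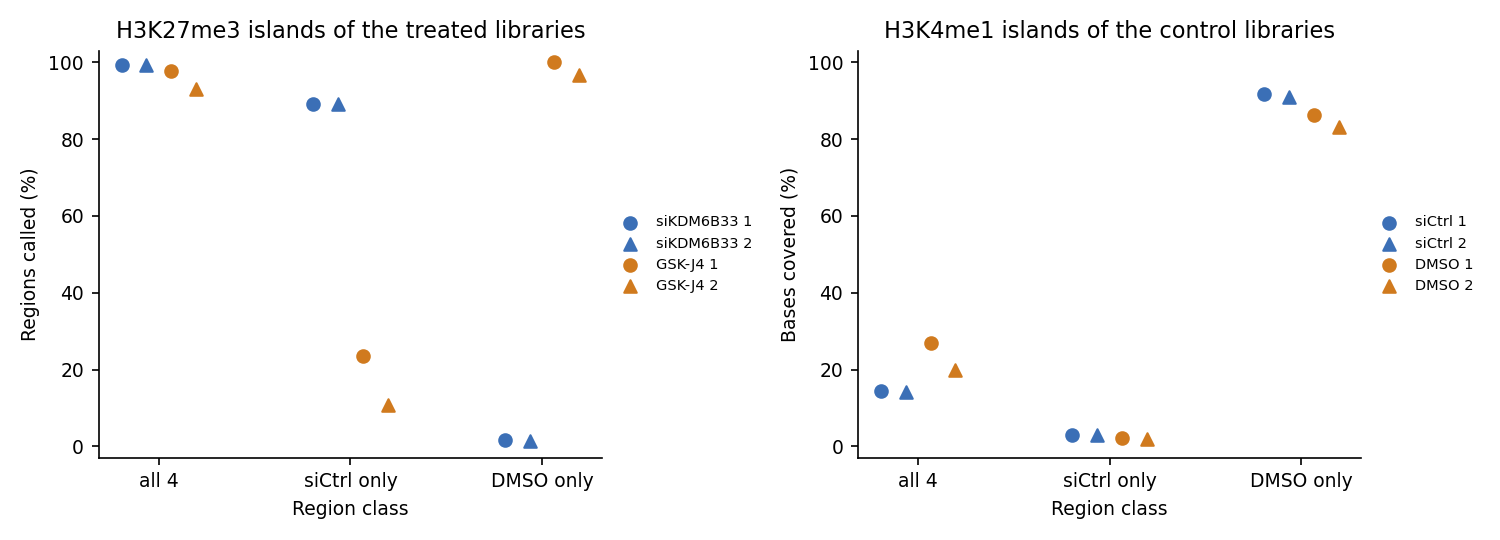
Left, percentage of the regions of each class called in the 4 treated H3K27me3 libraries (siKDM6B33 blue, GSK-J4 orange). Right, percentage of the bases of each class inside H3K4me1 islands of the 4 control libraries (siCtrl blue, DMSO orange). Circles are replicate 1 and triangles replicate 2. DMSO-only regions sit at 1.62% and 1.48% in siKDM6B33, at 100% and 96.6% in GSK-J4, and above 80% in the right panel.

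Genes behaved as the regions did. Of the 2037 genes called in all 4 controls, the treated libraries called 99.2% and 99.4% with siKDM6B33 and 98.7% and 94.7% with GSK-J4. For the 885 siCtrl-only genes the shares were 87.0% and 86.0% with siKDM6B33 and 37.4% and 8.25% with GSK-J4. For the 715 DMSO-only genes they were 2.80% and 3.08% with siKDM6B33 and 96.4% and 93.3% with GSK-J4. Over all 19793 genes the 4 libraries called 18.6%, 18.5%, 23.3% and 16.3%. An H3K4me1 island of both siCtrl libraries lay at the start of 98.6% of the DMSO-only genes, 14.9% of the siCtrl-only genes and 28.0% of the all-4 genes, against 24.2% of all genes. In both DMSO libraries an H3K4me1 island lay at 52.2% of the all-4 genes and at 20.9% of all genes. Counted over regions in place of starts, 56.8% and 56.6% of the all-4 regions touched H3K4me1 islands of the siKDM6B33 libraries, 25.3% and 25.5% those of siCtrl, and 56.5% and 43.5% those of DMSO. The part of signal shared between the 2 antibodies in these counts was not tested.

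The widest domains called in all 4 libraries held developmental regulators and the MYCN locus. They were led by 2 intervals of chromosome 2, chr2:16330001-16603600, with no protein-coding gene, and chr2:16076401-16271800, which holds MYCN. The first was covered over 265.2 and 269.2 kb with siCtrl and 270.8 and 271.8 kb with DMSO, and the second over 192.6 and 194.4 kb with siCtrl and 195.2 and 195.4 kb with DMSO. H3K4me1 islands of both siCtrl libraries covered 96.6% and 99.3% of these 2 intervals. MYCN is amplified in BE2C, and the part of copy number in the calls of both marks there was not tested. The lncRNA gene GACAT3, beside MYCN, was covered over 98.1% and 98.8% with siCtrl and 100% in both DMSO libraries.

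The other widest domains had from 0% to 9.13% of their length in these H3K4me1 islands. EN2, a homeobox gene of the midbrain and hindbrain, lies in chr7:155160601-155341400, covered over 170.0 and 175.0 kb with siCtrl and 171.4 and 166.0 kb with DMSO. The HOXA cluster, whose genes set position along the body axis, was covered over 137.6 and 140.0 kb with siCtrl and 134.8 and 138.2 kb with DMSO. The HOXB cluster was covered over 122.8 and 127.0 kb with siCtrl and 131.0 and 127.0 kb with DMSO. RBFOX3, a neuronal splicing regulator, lies under 2 such domains on chromosome 17, of 151.2 and 111.8 kb. IRF8, a regulator of myeloid cells, was covered over 82.6 and 84.6 kb with siCtrl and 90.0 and 92.4 kb with DMSO. In each of these named domains the covered lengths of the 4 libraries differed by less than 10 kb. A domain without a protein-coding gene, chr15:99070401-99164600, varied more, with 84.8 and 88 kb with siCtrl and 76.8 and 89.2 kb with DMSO.

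Among the 12 genes with the widest island at the start in the all-4 class, HOXB3, EN2, IRX4, UNCX, LMX1B, HOXA10, HOXC12, HOXB13 and ONECUT3 are homeobox genes, and CFAP74, RBFOX3 and IRF8 are not. The island at the start of IRX4 was 56.2 and 57.6 kb wide with siCtrl and 56.4 and 56.0 kb with DMSO. That of UNCX was 74.0 and 54.8 kb with siCtrl and 74.8 and 75.2 kb with DMSO. That of HOXB3 was 100.6 and 109.2 kb with siCtrl and 131.0 and 112.8 kb with DMSO. Of these 12 genes, 2 had H3K4me1 islands at the start in both siCtrl libraries. With 5 kb on each side, UNCX had no H3K4me1 island in either siCtrl library but 91.7% and 66.2% of its length covered with DMSO, and IRX4 likewise had none with siCtrl and 89.9% and 69.0% with DMSO. In the siKDM6B33 libraries IRX4 had 67.97% and 59.5%, and UNCX had 40.1% and 0%.

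Transcription factor families had large shares of members called in both experiments. All 4 libraries called 28 of 39 HOX genes, 79 of 100 other homeobox regulators, 8 of 9 PAX genes, 35 of 52 lineage regulators of other tissues, 32 of 64 SOX and FOX genes and 9 of 23 T-box and GATA factors, beside 10.3% of all genes. Neighboring members can lie in a single domain, as in the HOXA and HOXB clusters, so genes of a list are not all separate calls. Over the HOX genes with 5 kb on each side the median coverage was 94.0% and 100% with siCtrl and 95.9% and 98.8% with DMSO, where the median over all protein-coding genes was 0% in each library. Over the other homeobox regulators it was 78.3% and 78.9% with siCtrl and 77.5% and 80.1% with DMSO. PAX2, PAX3, PAX6 and PAX7, which pattern the neural tube, eye, kidney and muscle, had islands of 25 to 38.2 kb at the start in all 4 libraries. NEUROG1 and OLIG2, regulators of neurons and oligodendrocytes, had islands of 21.6 to 34.8 kb.

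Regulators called in a single control took shares both below and above those of all genes (4.47% for siCtrl only and 3.61% for DMSO only). With siCtrl only the shares were 0% of HOX genes, other homeobox and PAX genes, 4.69% of SOX and FOX genes, 8.70% of T-box and GATA factors and 1.92% of lineage regulators. With DMSO only they were 12.8% of HOX genes, 3% of other homeobox genes, 1.56% of SOX and FOX genes, 4.35% of T-box and GATA factors and 0% of the PAX and lineage lists. The HOX genes of that share are neighbors in the HOXC cluster. HOXC5 and HOXC6 had islands of the same widths (12.8 and 27.4 kb), as did HOXC8 and HOXC9 (15.2 and 11.2 kb), so they are not separate calls. The siCtrl-only genes were SOX2, SOX7 and FOXN4, the T-box genes TBX10 and TBX21, and LMO2. The island at SOX2, a factor of neural progenitors, was 2.6 and 2.8 kb wide with siCtrl. With DMSO only they included HOXC4, HOXC5, HOXC6, HOXC8, HOXC9, CDX1, MSX2, FOXS1 and GATA2. The HOXC cluster on chromosome 12 was split by this. HOXC12 and HOXC13 were called in all 4 libraries with islands of 47.4 and 47.6 kb with siCtrl and 52.2 and 44.8 kb with DMSO. HOXC10 and HOXC11 were also called in all 4 libraries, and HOXC4 to HOXC9 only with DMSO. With 5 kb on each side HOXC8 was covered over 0% in both siCtrl libraries and 73.9% and 89.8% in the DMSO libraries, and H3K4me1 islands of the siCtrl libraries covered all of it. For HOXC6 the H3K27me3 coverage was 1.58% and 3.97% with siCtrl and 73.7% and 92.8% with DMSO. All 5 HOXC genes of the DMSO-only class had H3K4me1 islands at the start in both siCtrl libraries, and 7 of the 28 HOX genes called in all 4 libraries did, near the 98.6% and 28.0% of all genes of these classes.

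Signalling and neuronal gene families were also called in all 4 libraries in larger shares than the 10.3% of all genes. The counts were 20 of 30 WNT ligands and antagonists, 19 of 46 BMP, GDF and FGF genes, 42 of 94 potassium channel subunits, 16 of 37 glutamate and GABA receptor subunits and 20 of 71 axon guidance genes. WNT1 and WNT10B, neighbors on chromosome 12, shared an island of 20.0 and 24.4 kb with siCtrl and 20.0 and 20.2 kb with DMSO. BMP4 had islands of 15.6 and 15.8 kb with siCtrl and 15.4 and 22.4 kb with DMSO. These families also held single-control calls. With siCtrl only there were 5 BMP, GDF and FGF genes (BMP8A, BMP8B, FGF10, FGF14 and FGF23) and none with DMSO only. WNT4, a ligand of kidney and gonad development, was the WNT gene called only with siCtrl. GRIA3 and GRIK5, both glutamate receptor subunits, were called only with siCtrl and only with DMSO, respectively. Potassium channel genes were split 8 to 4 (8.51% and 4.26%) and axon guidance genes 6 to 7 (8.45% and 9.86%) between siCtrl only and DMSO only. The BMP, GDF and FGF genes called only with siCtrl were 10.9% of their list, and GRIA3 and GRIK5 each 2.70% of theirs. Beside the 4.47% and 3.61% of all genes, the potassium channel share with DMSO only was near the background. All 4 potassium channel and all 7 axon guidance genes of the DMSO-only class had H3K4me1 islands at the start in both siCtrl libraries, and 2 of 8 and 2 of 6 of the siCtrl-only class did. Over all genes of these classes the shares were 98.6% and 14.9%.

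**Figure D5:**
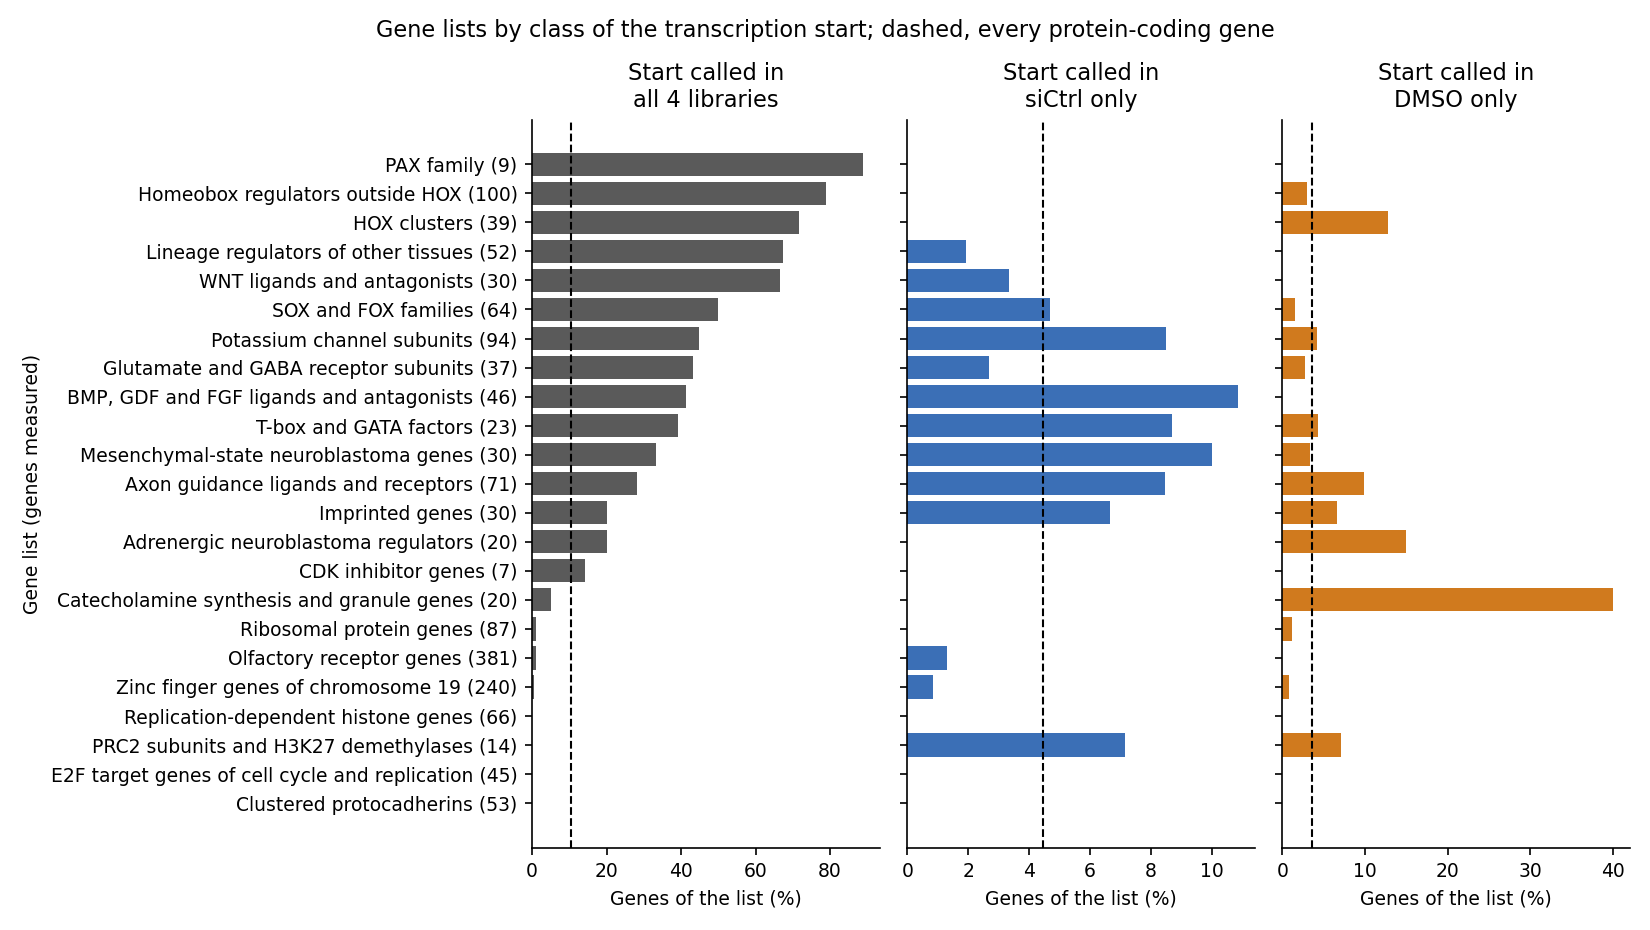
Percentage of the genes of each list (number measured in parentheses) with a start called in all 4 control libraries, only with siCtrl and only with DMSO. Dashed lines give the share of all protein-coding genes, 10.3%, 4.47% and 3.61%, and the 3 horizontal scales differ. PAX, homeobox and HOX genes stand highest on the left, and catecholamine synthesis and granule genes, at 40.0%, on the right.

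Genes of catecholamine synthesis and storage, functions of adrenergic cells, were called in part, more often with DMSO alone than with siCtrl alone. Of 20 catecholamine synthesis and granule genes, 8 were called only with DMSO, none only with siCtrl and 1 in all 4 libraries, beside 3.61%, 4.47% and 10.3% of all genes. No library called 9 of the 20, among them the vesicular transporters SLC18A1 and SLC18A2 and the granule proteins CHGB, SCG2 and SCG3. The 8 included TH and DBH, which make dopa and noradrenaline, DDC, CHGA of the secretory granule, CYB561 and the receptor RET. TH, the rate-limiting enzyme of catecholamine synthesis (chromosome 11 from 2185159 to 2193045, minus strand), was covered with 5 kb on each side over 0% in both siCtrl libraries and 100% in both DMSO libraries. CHGA was covered over 0% with siCtrl and 94.6% and 91.0% with DMSO. DBH was covered over 0% with siCtrl and 54.1% and 56.3% with DMSO.

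H3K4me1 islands lay at the start of all 8 of these genes in both siCtrl libraries, as at 98.6% of all DMSO-only genes, and they covered 100% of TH and CHGA in both. In the treated libraries, 3 and 2 of the 8 were called with siKDM6B33 and all 8 in both GSK-J4 libraries, beside 2.80%, 3.08%, 96.4% and 93.3% of all DMSO-only genes. The gene called in all 4 controls was PNMT, the enzyme that makes adrenaline, with islands of 3.8 kb in both siCtrl libraries and 7.4 and 6.2 kb in the DMSO libraries. No transcript was measured here, so the lists do not say whether any of these genes was silent.

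Of 20 adrenergic regulators, 4 were called in all 4 libraries (20%), 3 only with DMSO (15%) and 0 only with siCtrl, beside 10.3%, 3.61% and 4.47% of all genes, and 9 were called in none. HAND2, GATA3 and ISL1, core factors of the sympathetic lineage, had no H3K27me3 island at the start in any of the 4 libraries. HAND2 with 5 kb on each side was nevertheless covered over 24.9% and 26.7% with DMSO and 0% with siCtrl, and GATA3 over 22.1% in DMSO replicate 1 and 0% in the other 3 libraries. H3K4me1 islands of the siCtrl libraries covered 77.8% and 68.8% of GATA3. GATA2, HAND1 and KLF13 were called only with DMSO, and MYCN, SOX11 and INSM1 were among those called in all 4 libraries. HAND1 was covered over 98.6% and 92.5% with DMSO and 0% with siCtrl. All 3 DMSO-only regulators had H3K4me1 at the start in both siCtrl libraries, as did 98.6% of their class.

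Of 30 mesenchymal-state genes, 10 were called in all 4 libraries (33.3%), 3 only with siCtrl (10%) and 1 only with DMSO (3.33%), beside 10.3%, 4.47% and 3.61% of all genes. PRRX1, a homeobox regulator of that state, had islands of 17.6 and 15.6 kb with siCtrl and 19.2 and 15.2 kb with DMSO. FOSL1, an AP-1 subunit, had islands of 14.0 kb in both siCtrl libraries and 22.4 and 20.8 kb with DMSO. TWIST1 and SNAI2 had none at the start. The siCtrl-only genes were COL1A1, FN1 and WWTR1, with islands of 1.8 to 3.8 kb, and the DMSO-only gene was PDGFRB. The labels give no cell state for BE2C. Among state markers, the starts of HAND2, GATA3 and ISL1 were free of islands and those of PRRX1 and FOSL1 were marked, but TWIST1 and SNAI2 were also free and TH and DBH were marked with DMSO.

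The widest single-control regions were narrower than the widest of the all-4 class. With siCtrl only, they covered 11.4 to 15.8 kb in the calling libraries, and the first was at PCK1, the rate-limiting enzyme of gluconeogenesis (chr20:56125001-56141000), with 15.2 and 15.8 kb. IGF2BP2, an RNA-binding protein gene, followed with 14.6 and 15.8 kb. Of the 10 widest, 9 had no H3K4me1 island of both siCtrl libraries and that in RORA had 14.8% of its length in one. The 12 siCtrl-only genes with the widest islands at the start were led by CXCL17, a chemokine, with 15.4 and 12.8 kb, and they included OR4D1, KRT75, CXCR1 and SCGB3A2, genes of smell, hair, neutrophils and airway. The others were TAFA3, MSH6, NEURL3, PPP1R42, ADCY5, VWA3A and AKR1B10, and no common theme was tested. With 5 kb on each side, OR4D1 was covered over 71.7% and 60.4% with siCtrl and 27.4% and 52.8% with DMSO.

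With DMSO only, the 10 widest regions covered 44.2 to 68.8 kb in the calling libraries, and all lay at least 91.1% in H3K4me1 islands of both siCtrl libraries. The first, chr10:80886001-80957600, lies in ZMIZ1, a transcriptional coregulator, with 68.0 and 68.8 kb. Others were at KIF26A (60 and 66.0 kb), a kinesin-family gene, GSE1 (57.8 and 59.2 kb), UNC5B (53.8 and 59.0 kb), a netrin receptor, and KCNH2 (44.4 and 45.6 kb), a potassium channel. KIF26A was covered over 95.6% and 100% with DMSO and 0% with siCtrl, where H3K4me1 islands covered 100% and 97.4% of it. Of the 12 DMSO-only genes with the widest islands at the start, 11 had H3K4me1 there in both siCtrl libraries and the exception was SLC26A1. SLC26A1 was covered over 33.8% and 35.98% with siCtrl and 38.4% and 32.7% with DMSO, with 5 kb on each side included.

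Housekeeping genes and repeated families had smaller shares in the 3 classes than the 10.3%, 4.47% and 3.61% of all genes. None of 45 E2F target genes, 66 replication-dependent histone genes and 53 clustered protocadherins was called in both libraries of either control. Of 87 ribosomal protein genes 1 was called in all 4 libraries (RPS12) and 1 only with DMSO (RPL18). Of 381 olfactory receptor genes 4 were called in all 4 libraries and 5 only with siCtrl. Of 240 zinc finger genes of chromosome 19, 1 was called in all 4 libraries, 2 only with siCtrl and 2 only with DMSO. Each of these counts lay below the share of all genes in the same class.

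Of 14 measured genes named by the study, 3 were called in all 4 libraries (21.4%), 2 only with siCtrl (14.3%) and 1 only with DMSO (7.14%), beside 10.3%, 4.47% and 3.61% of all genes. These genes come from the study of these same samples, so the counts are no independent evidence. KDM6B itself (chromosome 17 from 7737535 to 7758114) was called only with DMSO, with islands of 10.2 and 8.0 kb at the start, and H3K4me1 islands of both siCtrl libraries lay there too. EED, a subunit of Polycomb repressive complex 2, was called only with siCtrl, with islands of 1.0 and 0.6 kb, and EZH2 and SUZ12 in no library. CDKN1A, a CDK inhibitor, was called in all 4 libraries with islands of 2.4 and 3.0 kb with siCtrl and 4.6 and 6.2 kb with DMSO. NAV2 was called in all 4, and CYRIA (FAM49A), a neighbor of MYCN on chromosome 2, only with siCtrl. AKT1 was called in 1 DMSO library, and E2F8, CCNE1, BUB1, BIRC5 and AURKB in none.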

How the data were processed

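CUT&Tag for H3K27me3 and H3K4me1 in BE2C cells gave 16 libraries, with 2 biological replicates per group, and groups and replicate numbers came from the sample titles. The authors trimmed reads with Trim Galore (0.4.4), aligned them to hg19 with BWA (0.7.12), removed duplicates with Picard (1.65) and kept unique, properly paired fragments of 150 to 2000 bp with SAMtools (1.3.1). The authors called islands with SICER (1.1, 200-bp windows, gap 600 bp, effective genome fraction 0.86, FDR 1e-05), and each deposited island carries a SICER score that adds up over its windows. The authors called narrow peaks with MACS2 (q 0.05, version 2.1.1 in the labels), and the deposited peak lists give a fold enrichment (a ratio) and −log10 p and q values. Lists were made library by library.

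Islands on the 24 nuclear chromosomes were used, with GRCh37 and GENCODE 44 mapped to it, in Python (3.11.15), NumPy (2.4.6), pandas (2.3.3), SciPy (1.17.1) and pysam (0.24.0). Regions were unions of islands sharing at least 1 bp. A gene was called where an island lay within 1 kb of any of its starts (55825 starts in all), and gene coverage included 5 kb on each side. The fold and −log10 p of a narrow peak give its whole-number summit and its background, solved for nearly all peaks, and the background stood in for depth. Library values were compared by exact two-sided permutation tests. The voom and limma test of the study could not be run, since the lists hold no reads, and its E. coli scaling was not used here. Same-numbered siCtrl and DMSO libraries did not deviate together (r = -0.00247 over 14771 regions), so the numbers were not treated as pairs.

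Named genes were the study's own, the 12 with the widest island at the start per class (smallest over the calling libraries, 1 gene per island) and up to 4 members per list and class by that width, and further members that a short count spells out were named after their values were seen. Regions were the 10 widest per class. Members and lists were chosen with earlier results of these data known. All code was tested on simulated data. The alternatives were other joining, width, score, length and overlap rules, other start windows, left-out libraries, and, added after seeing the data, only islands under 50% in H3K4me1. Some list members and 1 promoter are not reported here.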

Additional observations from a re-analysis of the deposited data

How the results depend on the processing

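Of 116 alternative values for the 12 main results, 106 kept their direction and, for counts, stayed within 1.5 times, 9 counts moved further and 1 difference reversed. Some of these were bound to stay. With a library left out the class rule asks for fewer libraries, so gene counts cannot fall. The replicate block leaves each difference as it was. With the highest-scoring 50% of each list, 1779 regions were called in all 4 libraries, 2215 only with siCtrl and 1270 only with DMSO, and 436 genes only with DMSO, as fewer islands were used, and the difference in covered length shrank to 1.82 Mb with an exact permutation p = 1. With equal numbers of islands 2038 regions and 527 genes were called only with siCtrl, and with islands of at least 2 kb 551 genes. With only islands under 50% in H3K4me1, chosen after seeing the data, 21 regions and 19 genes were called only with DMSO, and covered length with DMSO fell by 20.1 Mb against siCtrl in place of a rise of 7.54 Mb. Leaving out each library gave 3066 to 3420 regions for all 4, 4406 to 5914 for siCtrl only and 2874 to 3705 for DMSO only, 2055 to 2165, 1000 to 1087 and 733 to 940 genes, and differences in covered length of 4.37 to 10.7 Mb, the lowest without DMSO replicate 2 and the highest without DMSO replicate 1. With the replicate number as a block, the differences were the same (7.54 Mb in covered length, -3287 islands, 3000 bp in width, 40.2 points in H3K4me1 overlap, 72.1 and 96.8 points in recurrence), with an exact p = 0.5, the smallest for 2 pairs, and no call changed. With 2 libraries per control no difference could pass 0.05. Region lists hold no reads, so a region without an island may still carry signal under the caller's limit.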

Other observations

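Imprinted genes, of which a single parental copy is active, held several genes called in an unequal number of siCtrl libraries. Of 30 measured, 6 were called in all 4 libraries, 4 in both DMSO and 1 siCtrl library, 2 only with siCtrl and 2 only with DMSO. The shares in all 4 libraries, siCtrl only and DMSO only were 20%, 6.67% and 6.67%, beside 10.3%, 4.47% and 3.61% of all genes, and 48 of all 19793 genes were called in both DMSO and 1 siCtrl library. The 4 were IGF2, DLK1, PEG10 and SGCE, named after their values were seen. DLK1, a Notch ligand-like membrane protein, had no island at the start in siCtrl replicate 1, one of 1.6 kb in siCtrl replicate 2, and islands of 14.8 and 18.8 kb with DMSO. GRB10 and PLAGL1 were called in all 4 libraries, with islands of 7.6 to 10.6 kb and 5.8 to 10.4 kb, and MAGEL2 only with siCtrl, with 3.6 and 6.0 kb.

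The classes were spread unevenly over chromosomes. DMSO-only regions were 28.7% of the 581 regions of chromosome 9 and 26.8% of the 447 of chromosome 22, beside 19.3% over the genome. They were 6.89% of the 479 of chromosome 13 and 4.73% of the 169 of chromosome 18, the lowest share. The siCtrl-only share was 26.3%, 23.7%, 33.8% and 35.5% on the same chromosomes. These are shares of regions and no test was made of them.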
